A study of Mus musculus with 4 samples.

Results

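Cytotoxic-type T cells of the mouse colon were followed in droplet single-cell RNA sequencing of colon from mice treated with CCl4 (carbon tetrachloride, a solvent that injures hepatocytes and serves as a cirrhosis model) and from control mice. Each group had 2 libraries. CCl4 was given for 6 weeks to SPF (specific pathogen free) mice that were 6 weeks old. The labels give no strain, sex or dose for either group, and no age or treatment, vehicle included, for the control mice. They name no genetic change in any group, do not say how many animals a library holds or whether libraries 1 and 2 come from different animals, and give no measure of the liver. Beyond the spread from library to library, which can be technical, the p-values below therefore say nothing of animals.

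The cells were chosen by counts of 28 genes in each barcode. A T cell had at least 2 counts over Cd3e, Cd3d, Cd3g, Trac, Trbc2 and Trdc, with at least 1 of them from the CD3 genes, no count of the B cell gene Cd79a, the macrophage gene Csf1r or the collagen gene Col1a1, and under 0.3% of its counts from 6 epithelial genes (Epcam, Krt8, Krt18, Krt19, Cldn7, Lgals4). A sum K was taken over Cd8a, Ccl5, Nkg7, Xcl1, Cd7, Gzma and Gzmb, and a sum H over Cd4, Icos, Ctla4, Foxp3, Tnfrsf4 and Il17a. T cells with K of at least 2 and larger than H were taken. They were 996 of the 38852 kept cells (2.56%), and 49.9% of 1997 T cells: 217 and 172 cells in CCl4 libraries 1 and 2, and 299 and 308 cells in control libraries 1 and 2. The 28 genes are given as values only. Just inside the limits lay 31 cells with K equal to 2 and 16 with K larger than H by 1. Just outside lay 46 T cells with K equal to 1 and H of 0, and 16 with K equal to H at 2 or more.

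Cytotoxic T cells kill target cells with granules that hold perforin, which opens membranes, and granzymes, serine proteases that enter the target. In the gut many of them live between the epithelial cells as intraepithelial lymphocytes, held there by the integrin CD103 (Itgae with Itgb7), which binds E-cadherin. Some carry an alpha-beta and others a gamma-delta T cell receptor, and many bear natural killer receptors such as CD94 (Klrd1). They also secrete interferon gamma (Ifng) and the chemokines Ccl3, Ccl4, Ccl5 and Xcl1, which draw in other immune cells.

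The 4 libraries held 12464 to 13986 barcodes with CCl4 and 10021 to 10038 barcodes without, each with over 1000 counts, and 55834301 to 92383719 counts in all. The kept cells had a median mitochondrial share of 7.56% and 6.91% in CCl4 libraries 1 and 2 and of 4.86% and 4.64% in control libraries 1 and 2. The cytotoxic-type T cells had median totals of 3623 and 3351 counts in CCl4 libraries 1 and 2, and 3360 and 3582 in control libraries 1 and 2. Their median mitochondrial share was 5.70% and 5.77% with CCl4 and 4.85% and 4.30% in control. Summed over these cells, the libraries held 854311 and 632637 counts with CCl4 and 1070244 and 1169788 in control. Among them, 23 barcode names occurred in more than 1 library, and 0 kept profiles were identical between libraries.

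Several genes of cytotoxic and intraepithelial lymphocytes that the rule did not use stood higher than in helper-type T cells. The levels that follow are CPM of the summed counts without further scaling, averaged over the 4 libraries, and are a description with no test. Klrd1, which encodes CD94, stood at 280 CPM in cytotoxic-type T cells and 2.87 CPM in helper-type T cells (H of at least 2 and larger than K, 663 cells). Cd160, a receptor of intraepithelial lymphocytes, stood at 114 CPM in cytotoxic-type T cells and at 0 to 3.68 CPM in the 4 libraries' helper-type T cells. The adaptors Fcer1g and Tyrobp stood at 164 and 131 CPM in cytotoxic-type and at 5.86 and 11.7 CPM in helper-type T cells. Itgae stood at 183 CPM in cytotoxic-type and 47.4 CPM in helper-type T cells. Cd5, a surface protein that is low on natural intraepithelial lymphocytes, went the other way, with 23.2 CPM in cytotoxic-type and 167 CPM in helper-type T cells. Most of these are shared with natural killer-type cells (163 cells with natural killer markers and no count of the 6 T cell genes of the rule), which stood at 195 CPM of Klrd1, 61.1 CPM of Cd160, 293.5 CPM of Fcer1g, 474 CPM of Tyrobp, 16.2 CPM of Itgae and 8.78 CPM of Cd5. Perforin (Prf1) was scarce, at 3.51 and 6.32 CPM with CCl4 and 3.74 and 22.2 CPM in control.

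Of the 4 genes that name these cells, Cd3d, Ccl5, Nkg7 and Xcl1, Ccl5 was the most abundant, and all 4 are genes of the rule. Ccl5 had a count in 87.6% and 85.5% of the cells with CCl4 and 84.3% and 84.7% in control, against 0.356% to 0.764% of fibroblast-type cells, which should lack it. Nkg7, a granule membrane protein, had a count in 47.0% and 53.5% of the cells with CCl4 and in 51.8% and 49.7% in control. Cd8a had a count in 22.6% and 20.9% with CCl4 and in 26.1% and 30.8% in control, so most of the cells had none. Markers of other cells that the rule did not use were present at these levels, without TMM scaling. The 6 natural killer markers (Ncr1, Klrb1c, Eomes, Klra4, Klra8, Prf1) summed to 62.0 and 88.5 CPM with CCl4 and 72.0 and 67.5 CPM in control. The 5 markers of type 3 innate lymphoid cells summed to 112 and 147 CPM with CCl4 and 103 and 102 CPM in control, nearly all from Kit. The 5 plasma cell markers, which include Igha and Igkc, summed to 680 and 572 CPM with CCl4 and 1285 and 1897 CPM in control. The 4 B cell markers, of which the rule set Cd79a to 0, summed to 15.2 and 3.16 CPM with CCl4 and 17.8 and 7.69 CPM in control.

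Most of the cells had transcripts of an alpha-beta receptor and no Trdc count, which does not show the receptor itself. Trdc was sparse, at 86.9 CPM against 946.5 CPM of Trbc2 over the 4 libraries without TMM scaling, so cells that express it can lack a count. A count of Trac, Trbc1 or Trbc2 and none of Trdc was found in 81.1% and 76.2% of them with CCl4 and 78.6% and 79.5% in control. The reverse, Trdc alone, was found in 4 and 8 cells with CCl4 and 3 and 6 cells in control, which is 2.22% and 5.76% of the cells of either type with CCl4 and 1.26% and 2.39% in control. The 2 groups overlapped. Trac, Trbc2 and Trdc are genes of the rule, so these shares are given as values only. Both kinds of transcript stood in 24 and 15 cells with CCl4 and in 33 and 38 cells in control. Trdc alone or with others was detected in 12.9% and 13.4% of the cells with CCl4 and 12.04% and 14.3% in control, shares that also overlap.

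Cytotoxic-type T cells made up a smaller part of the colon cells of CCl4 mice in every count that was made. They were 1.96% and 1.65% of kept cells in CCl4 libraries 1 and 2, and 3.47% and 3.51% in control libraries 1 and 2. The exact (Clopper-Pearson) 95% intervals, which cover counting error only, ran from 1.42% to 2.24% with CCl4 and from 3.09% to 3.92% in control. Among kept cells under the epithelial limit of 0.3%, they were 3.25% of 6685 and 2.70% of 6360 cells with CCl4, and 4.49% of 6661 and 4.50% of 6843 cells in control. Among T cells they were 47.6% and 44.6% with CCl4, and 53.4% and 51.8% in control, where the intervals of single libraries overlap. In all 3 counts both CCl4 libraries lay below both control libraries. An exact permutation of 2 against 2 libraries gave p = 0.333 for each (two-sided), the smallest p this design allows, so none of the differences can pass a threshold of 0.05. Barcodes with over 25% mitochondrial counts held 9 and 6 further such cells with CCl4 (0.309% and 0.297% of the barcodes removed) and 6 and 6 in control (0.439% and 0.483%). With no epithelial limit in the rule, the shares of kept cells were 2.10% and 1.76% with CCl4 and 3.55% and 3.60% in control. By the full rule, all T cells were 4.129% and 3.706% of kept cells with CCl4 and 6.497% and 6.784% in control. Helper-type T cells were 156 of 11045 and 141 of 10416 kept cells with CCl4, and 175 of 8620 and 191 of 8771 in control. The lower share of kept cells was therefore not confined to cytotoxic-type T cells. In a dissociated tissue, fewer cells of a type and a lower recovery of them cannot be told apart.

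**Figure D1:**
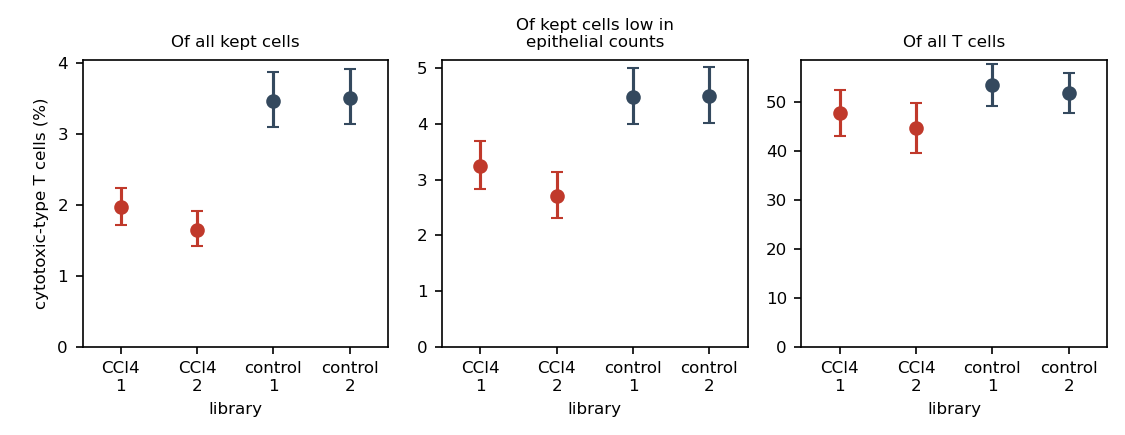
Share of cytotoxic-type T cells (%) in each library, of all kept cells, of kept cells under 0.3% epithelial counts and of all T cells; points are libraries, bars exact 95% binomial intervals, CCl4 in red and control in dark blue. The CCl4 libraries sit at 1.96% and 1.65% of kept cells and the control libraries at 3.47% and 3.51%.

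Within the cells, granzyme transcripts differed most of the 7 genes of the K sum. A gene that chooses the cells cannot test itself, so the cells were chosen again for each of the 7 genes from a K sum without it, and that gene was then tested with edgeR's quasi-likelihood test, fitted on all genes with Benjamini-Hochberg adjustment at 0.05. CPM are scaled by TMM factors from here on, except where stated otherwise. Gzma, granzyme A, had 902 and 904 CPM in CCl4 libraries 1 and 2, and 2774 and 1925 CPM in control libraries 1 and 2. The libraries of the groups did not overlap, and Gzma fell (log2 ratio of CCl4 over control -1.38, SE 0.169, edgeR adjusted p = 0.0282), as 1 of 19 calls among 7686 genes (0.247%), 10 higher (0.13%) and 9 lower (0.117%). Gzmb, granzyme B, the main death-inducing granzyme, had 309 and 283 CPM with CCl4 and 746 and 521 CPM in control. It fell too (-1.09, SE 0.183, edgeR adjusted p = 0.0477), as 1 of 16 calls among 7674 genes (0.208%), 8 higher (0.104%) and 8 lower (0.104%). The Gzmb call was lost without control library 1 (-0.81, adjusted p = 0.107). With stricter cells (500 or more genes, no more than 10% mitochondrial), neither call was made (Gzma -1.05, adjusted p = 0.0818, and Gzmb -1.05, adjusted p = 0.194). With both granzymes out of the K sum, Gzma had an adjusted p of 0.0432 and Gzmb of 0.0523.

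The other 5 genes of the sum were not called. The chemokine Ccl5 had 3873 and 2878 CPM with CCl4 and 4906 and 4112 CPM in control (-0.42, SE 0.161, edgeR adjusted p = 0.636). Nkg7 had 321 and 330 CPM with CCl4 and 449.9 and 363 CPM in control (-0.32), and Cd8a had 162 and 175 CPM with CCl4 and 209 and 196 CPM in control (-0.26). In these 3 genes the CCl4 libraries lay below the control libraries. That order held for 19.4% of all 7690 genes tested in the cells of the full rule. Xcl1, a chemokine for cross-presenting dendritic cells, had 689 and 619 CPM with CCl4 and 599 and 574 CPM in control (0.16). Cd7, a surface protein of T and natural killer cells, had 632 and 559 CPM with CCl4 and 458 and 539 CPM in control (0.26). In both Xcl1 and Cd7 the CCl4 libraries lay above, as in 18.8% of the 7690 genes. Adjusted p-values of these 4 genes ran from 0.647 to 0.826.

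**Figure D2:**
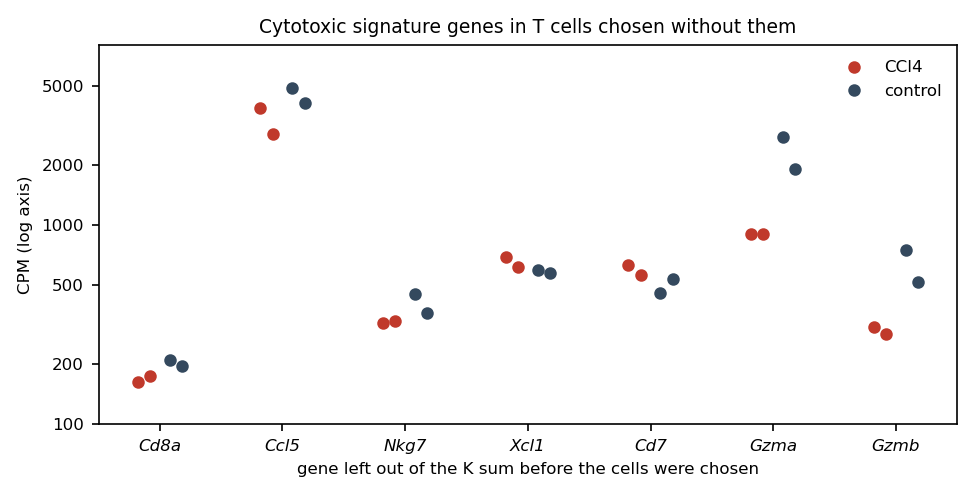
CPM (log axis) of the 7 genes of the K sum, each in T cells chosen from a K sum without it; points are libraries, CCl4 in red to the left of control in dark blue. Gzma, at 902 and 904 against 2774 and 1925 CPM, and Gzmb, at 309 and 283 against 746 and 521 CPM, are the genes whose groups lie farthest apart.

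Granzyme transcripts stood in a smaller share of the cells with CCl4. The amounts per positive cell overlapped between the groups in their medians among 1000 counts, but not in their means or in CPM at full depth. With both granzymes left out of the choice and 1000 counts drawn from each cell, 8.41% of 214 and 10.5% of 172 cells had a Gzma or Gzmb count with CCl4, and 21.2% of 297 and 17.1% of 304 cells did in control. Without drawing to 1 depth the shares were 13.1% and 13.4% with CCl4 and 25.3% and 20.7% in control. The groups did not overlap (exact permutation p = 0.333, two-sided, the smallest possible). In fibroblast-type cells, whose median totals were 3916 to 4702 counts, 0% to 0.118% had a Gzma count among 1000 and 0% to 0.0395% a Gzmb count. Plasma-type cells, with at least 5 counts of Jchain and Mzb1 and none of CD3, had a Gzma count among 1000 in 0.806% and 0.625% of cells with CCl4 and in 0.821% and 0.717% in control, and at full depth in 4.57% and 5.31% with CCl4 and 8.76% and 9.61% in control. A positive cell held a mean of 16.2 and 13.3 granzyme counts among 1000 with CCl4 and of 16.4 and 16.6 in control, and a median of 12.5 and 7 with CCl4 and 12 and 10.5 in control. Both granzymes together stood in 5.14% and 4.65% of the cells with CCl4 and in 12.5% and 9.21% in control. For comparison, Ccl5 had a count among 1000 in 70.5% and 71.8% of cells chosen without it with CCl4, and in 71.1% and 68.5% in control. At full depth, summed over granzyme-positive cells without TMM scaling, Gzma stood at 5404 and 6576 CPM with CCl4 and 11090 and 9397 CPM in control. Gzmb stood there at 1844 and 2061 CPM with CCl4 and 2970 and 2525 CPM in control.

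**Figure D3:**
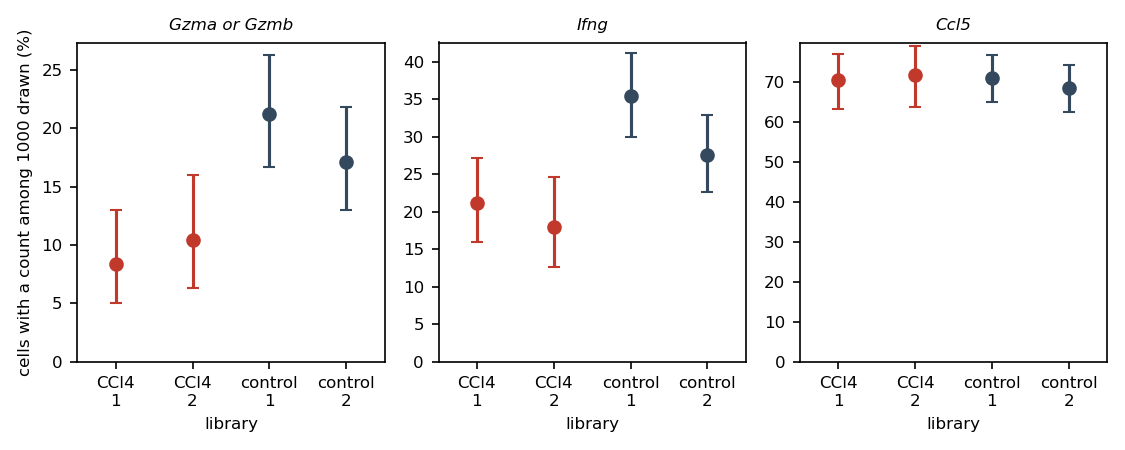
Share of cytotoxic-type T cells (%) with a count of Gzma or Gzmb, of Ifng and of Ccl5 among 1000 counts drawn per cell; cells were chosen without the granzymes in the left panel, by the full rule in the middle and without Ccl5 on the right, points are libraries, and bars are exact 95% binomial intervals, CCl4 in red and control in dark blue. The granzyme share is 8.41% and 10.5% with CCl4 and 21.2% and 17.1% in control, and the Ccl5 share is 68.5% to 71.8% in all 4 libraries.

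Gzma lies at chr13:113093825-113100981 on the minus strand of GRCm38 in GENCODE M21, Gzmb at chr14:56258838-56262260 on the minus strand, and Ifng, which is described below, at chr10:118441046-118445892 on the plus strand. The 200 bases before each gene's start, from RefSeq on GRCm38.p6, are shown because these 3 transcripts had lower levels with CCl4. The windows are chr13:113100982-113101181, chr14:56262335-56262534 and chr10:118440846-118441045. The RefSeq start of Gzmb lies upstream of the GENCODE one. Capitals mark matches, on both strands, to TGTGGT, a core recognised by RUNX factors, to TGANTCA, the AP-1 motif, and to GGTGTG, a T-box half-site.
Gzma: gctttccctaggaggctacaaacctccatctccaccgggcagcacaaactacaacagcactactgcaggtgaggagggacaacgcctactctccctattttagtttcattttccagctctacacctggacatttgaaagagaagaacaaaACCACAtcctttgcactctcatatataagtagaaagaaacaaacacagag
Gzmb: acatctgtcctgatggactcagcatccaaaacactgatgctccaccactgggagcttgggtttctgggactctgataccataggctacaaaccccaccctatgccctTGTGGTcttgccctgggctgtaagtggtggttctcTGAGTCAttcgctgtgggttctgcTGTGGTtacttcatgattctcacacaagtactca
Ifng: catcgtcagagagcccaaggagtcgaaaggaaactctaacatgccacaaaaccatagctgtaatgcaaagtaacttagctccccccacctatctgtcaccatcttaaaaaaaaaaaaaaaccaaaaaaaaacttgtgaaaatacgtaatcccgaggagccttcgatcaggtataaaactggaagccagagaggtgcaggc
Gzma held 1 match to TGTGGT on the opposite strand, starting 50 bases before the gene's start. Gzmb held 2 matches to TGTGGT, starting 93 and 34 bases before the start, and between them 1 match to TGANTCA starting 58 bases before it, with no overlap. The Ifng window held no match, and none of the 3 windows held GGTGTG. Of 27025 promoters with a window of this length, 11.3% held TGTGGT, 5.55% TGANTCA and 13.2% GGTGTG. A match is a description of these letters and shows no binding.

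Cells with and without granzyme counts differed in some other genes of the cytotoxic program, in both directions. The split was made after values were seen and is described without a test, as CPM of summed counts, meaned over the 4 libraries. Ccl5 stood at 8520 CPM in granzyme-positive and 2542 CPM in granzyme-negative cells. Ccl4 stood at 440.1 CPM in positive and 79.8 CPM in negative cells. Cd8a stood at 403 CPM in positive and 142 CPM in negative cells, Itgae at 313 and 148 CPM, and the transcription factor Tbx21 (T-bet) at 429 and 201 CPM, except that in CCl4 library 2 Itgae was lower in positive (139 CPM) than in negative cells (159 CPM). In all 4 libraries the granzyme-positive cells had the higher level of Ccl5, Ccl4 and Cd8a. Cd160 went the other way, with 53.9 CPM in positive and 129 CPM in negative cells. So did Eomes (11.9 and 34.6 CPM) and, though not in CCl4 library 1, Klra7 (77.6 and 160 CPM) and Xcl1 (560 and 645 CPM). Klrk1 (106 and 117 CPM), Ctsw (305 and 315 CPM) and Cd7 (581 and 548 CPM) differed little in these means, which hide opposite differences. Klrk1 and Cd7 were higher in positive cells in both CCl4 libraries and lower in both control libraries. Klrk1 had 137 and 162 CPM in positive and 120 and 112 CPM in negative cells with CCl4. In control it had 46.1 and 80.5 CPM in positive and 106 and 130 CPM in negative cells. Ctsw was higher in positive cells in CCl4 library 1 and control library 2 only. Fasl (159 and 52.6 CPM) and Ccl3 (178 and 47.6 CPM) were higher in positive cells. Ccl5, Cd8a, Xcl1 and Cd7 are genes of the K sum that chose these cells. Ifng did not follow the split in the same way: it had 410 and 208 CPM in positive and 693 and 438 CPM in negative cells with CCl4, and 2482 and 1076 CPM in positive and 1199 and 1044 CPM in negative cells in control.

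Across all genes, edgeR called 26 of 7690 genes (0.338%) in the cytotoxic-type T cells, 13 higher (0.169%) and 13 lower (0.169%) with CCl4, and 588 had an unadjusted p under 0.05. Of the calls, 6 were genes of the rule and are values only: Gzma and Gzmb, Ctla4, which stood at 55.4 and 63.7 CPM with CCl4 and 154 and 177 CPM in control, and the epithelial genes Krt8, Krt19 and Lgals4. The other 20 were 10 higher and 10 lower. Each of the 20 kept its direction in every alternative in which it was tested. With each cell thinned to 1000 counts 1 call was left, Gzma, and none outside the genes of the rule. Among cells under 0.05% epithelial counts 3 were left, Gzma, Ifng and Igha. In both settings Gzma was in the K sum that chose the cells, so its call there is no test of it.

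**Figure D4:**
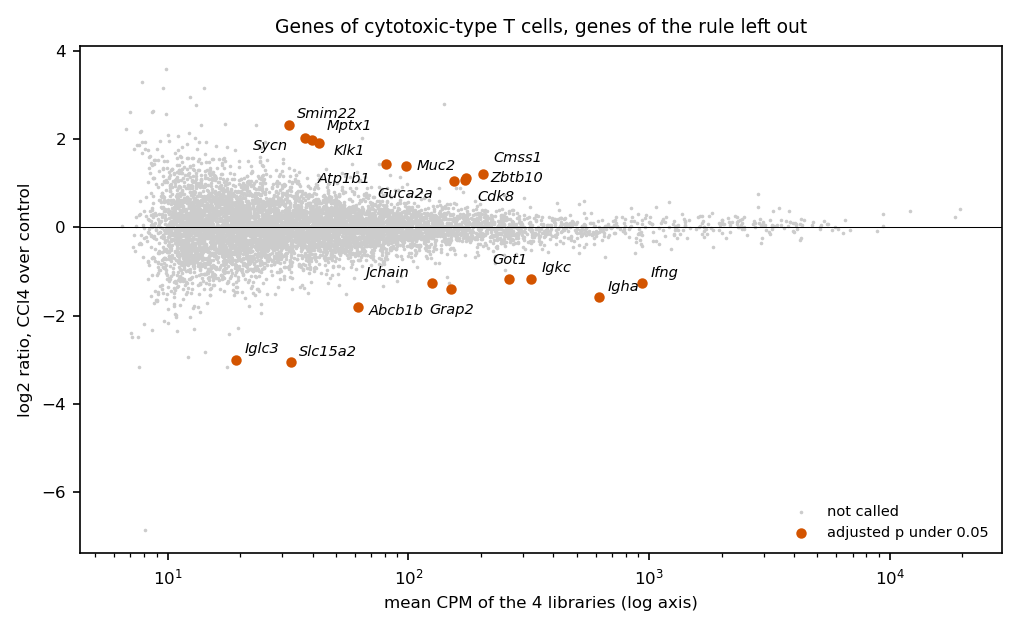
Log2 ratio of CCl4 over control against mean CPM (log axis) for 7667 genes of cytotoxic-type T cells, genes of the rule left out; orange points are 19 genes with an edgeR adjusted p under 0.05. Ifng, at -1.26, is the most abundant of them, and Slc15a2, at -3.05, has the lowest ratio of the 19.

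Among the secreted effectors, Ifng fell. It had 690 and 409 CPM in CCl4 libraries 1 and 2 and 1570 and 1070 CPM in control libraries 1 and 2, groups that do not overlap (log2 ratio -1.26, SE 0.229, edgeR adjusted p = 0.0445). DESeq2 gave a ratio of the same size with an adjusted p of 0.467, and without cells that held a granzyme count it was -0.92 (adjusted p = 0.0906). Among 1000 counts per cell, an Ifng count stood in 21.2% and 18.02% of the cells with CCl4 and 35.5% and 27.6% in control, against 0.118% to 0.291% of fibroblast-type cells. The positive cells held a mean of 3.46 and 2.84 Ifng counts with CCl4 and 4.76 and 4.31 in control, so both the share and the amount were lower with CCl4. Ccl4, a chemokine for T cells and monocytes, had 66.7 and 110 CPM with CCl4 and 180 and 236 CPM in control, and narrowly missed the threshold (-1.25, edgeR adjusted p = 0.0824, DESeq2 adjusted p = 0.0267). Of the other secreted factors, Ltb had a log2 ratio of 0.28 and Mif of -0.16, both not called. In the list of effector cytokines and chemokines 13 genes outside the rule were tested. Of these 0 rose and 1 fell, beside 10 higher and 10 lower of all 7668 genes outside the rule. The median log2 ratio of the list was -0.46, against -2.7e-05 over the 7668.

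Of the genes of tissue residency and homing, the most abundant, Rgs2, Rgs1, Cd69 and Itgb7, were not called. Rgs1, a brake on chemokine signalling, had 1489 and 1638 CPM with CCl4 and 2219 and 2057 CPM in control (-0.45, adjusted p = 0.366), and Cd69, a retention signal, had 746 and 837 CPM with CCl4 and 694 and 643 CPM in control (0.24). Itgae had 133 and 158 CPM with CCl4 and 254 and 208 CPM in control (-0.67, SE 0.191, edgeR adjusted p = 0.367), which does not overlap but is not called.

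In receptor signalling, Grap2, the adaptor Gads that joins Lat to downstream enzymes, fell to 98.2 and 65.3 CPM in CCl4 libraries 1 and 2, against 229 and 207 CPM in control libraries 1 and 2 (log2 ratio -1.40, SE 0.224, edgeR adjusted p = 0.0355). It lies at chr15:80572594-80652854. Lat itself had 154 and 180 CPM with CCl4 and 299.7 and 279.7 CPM in control (-0.80, adjusted p = 0.125), and the kinase Fyn had 261 and 274 CPM with CCl4 and 399 and 364 CPM in control (-0.51, adjusted p = 0.391). Cd8b1, the beta chain of CD8, had 46.6 and 43.0 CPM with CCl4 and 138 and 86.6 CPM in control (-1.32, adjusted p = 0.164); Lat and Cd8b1 are named after their values were seen. Of 19 tested genes of the receptor complex outside the rule, edgeR and DESeq2 called 0. At an unadjusted p under 0.05, 0 were higher and 4 lower, beside 302 higher and 274 lower of all 7668 genes outside the rule. In 10 of the 19 the CCl4 libraries lay below both control libraries, against 19.4% of all genes tested. The most abundant, Ptprc and Ptpn22, which encode phosphatases, had log2 ratios of -0.04 and -0.14.

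Of the transcription factors, Tbx21, which drives Ifng and cytotoxic genes, had 205 and 134 CPM with CCl4 and 309 and 362 CPM in control (log2 ratio -0.97, SE 0.204, edgeR adjusted p = 0.111, DESeq2 adjusted p = 0.0272). Prdm1 (Blimp-1), a factor of tissue-resident and effector lymphocytes, had 31.5 and 25.5 CPM with CCl4 and 82.6 and 81.4 CPM in control (-1.51, SE 0.291, adjusted p = 0.0592). Prdm1 was named after its values were seen. Without any 1 of the 4 libraries, which leaves 1 library in a group, its ratio was -1.696 to -1.385. Its adjusted p was 0.1355 in DESeq2, and in edgeR 0.253 with stricter cells and 0.0862 after removal of the top doublet scores. Id2, Id3 and Ikzf2, the other abundant members of the list, had ratios of -0.08, 0.17 and 0.40, none called. In all, edgeR called 0 of 22 tested factors and DESeq2 called 1, beside 24 DESeq2 calls over all 7668 genes outside the rule. At an unadjusted p under 0.05, 2 were higher and 6 lower, beside 302 higher and 274 lower of the 7668. The median was -0.22.

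Natural killer receptors held no call. The most abundant were Klrd1 with 311 and 289.7 CPM with CCl4 and 274 and 282 CPM in control (log2 ratio 0.11), Hcst, the adaptor DAP10 of the receptor NKG2D, at -0.49, Klra7 at 0.11 and Tyrobp, the adaptor DAP12, at 0.50. Klrc1, the inhibitory NKG2A chain that pairs with CD94, had 28.9 and 30.2 CPM with CCl4 and 74.9 and 71.0 CPM in control (-1.30, SE 0.290, edgeR adjusted p = 0.162), and was named after its values were seen. Of 18 tested genes edgeR and DESeq2 called 0. At an unadjusted p under 0.05, 2 were higher and 3 lower, beside 302 higher and 274 lower of all 7668 genes outside the rule. Klrc1, Klra7 and Abcb1b have close paralogs, Iglc3 and the heat shock and haemoglobin genes near-identical copies, so counts of these genes may be split between copies.

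Among the other calls below control were metabolic and transport genes. Got1, an aspartate aminotransferase of the malate-aspartate shuttle, fell to 130 and 196 CPM in CCl4 libraries 1 and 2, against 381 and 341 CPM in control libraries 1 and 2 (log2 ratio -1.16, SE 0.200, edgeR adjusted p = 0.0393). Abcb1b, a drug efflux pump, fell to 23.9 and 31.8 CPM with CCl4, against 84.5 and 107 CPM in control (-1.79, SE 0.303, adjusted p = 0.0393). Slc15a2, a carrier of di- and tripeptides, fell to 10.07 and 3.18 CPM with CCl4, against 52.8 and 64.1 CPM in control (-3.05, SE 0.468, adjusted p = 0.0314), which rests on 8 and 2 counts with CCl4. Without granzyme-positive cells Slc15a2 was called (-2.90, adjusted p = 0.0433), while Got1 (-0.80, adjusted p = 0.251), Abcb1b (-1.67, adjusted p = 0.0897) and Grap2 (-1.13, adjusted p = 0.112) were not. In fibroblast-type cells Slc15a2 stood at 1.11 and 2.43 CPM with CCl4 and 8.21 and 7.39 CPM in control, without TMM scaling. Got1 was lost with stricter cells (-1.06, adjusted p = 0.138), Abcb1b after removal of the top 6% of doublet scores (-1.66, adjusted p = 0.0558) and Slc15a2 with stricter cells (-3.53, adjusted p = 0.0696).

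Calls above control that are not epithelial products were few. Cmss1, which encodes a small-subunit ribosomal factor, rose to 249 and 319.9 CPM in CCl4 libraries 1 and 2, against 122 and 123 CPM in control libraries 1 and 2 (log2 ratio 1.21, SE 0.187, edgeR adjusted p = 0.0314). Cdk8, the kinase of the Mediator complex, rose to 219 and 245 CPM with CCl4, against 109 and 112 CPM in control (1.07, SE 0.184, adjusted p = 0.0393), a call lost without control library 1 (1.06, adjusted p = 0.0506). The zinc finger gene Zbtb10 rose to 237 and 237 CPM with CCl4, against 113 and 104 CPM in control (1.12, SE 0.182, adjusted p = 0.0355). The non-coding genes Gm26917 and Gm42418 moved beside Cmss1 and Cdk8: Gm26917 had 3216 and 3904 CPM with CCl4 and 2292 and 1901 CPM in control, and Gm42418 had 3620 and 4345 CPM with CCl4 and 3094 and 2777 CPM in control. Their part in the calls was not tested. In fibroblast-type cells, without TMM scaling, Cmss1 stood at 403 and 386 CPM with CCl4 and 266 and 338 CPM in control, and Cdk8 at 341 and 302 CPM with CCl4 and 168 and 264 CPM in control.

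Transcripts of goblet and surface epithelial cells were higher in the T cells of CCl4 mice. The rule's limit of 0.3% covers its 6 epithelial genes only, and set no limit on the called genes that follow. Muc2, the gel-forming mucin of goblet cells, rose to 154 and 129 CPM in CCl4 libraries 1 and 2, against 60.5 and 47.6 CPM in control libraries 1 and 2 (log2 ratio 1.39, SE 0.244, edgeR adjusted p = 0.0397), a call lost without control library 2 (1.22, adjusted p = 0.0779). Guca2a, the hormone guanylin, rose to 220.3 and 197 CPM with CCl4, against 95.1 and 107 CPM in control (1.05, SE 0.193, adjusted p = 0.0449), a call lost without control library 1 (0.98, adjusted p = 0.1201). Smim22 (2.33), Sycn (2.04), Mptx1 (1.98) and Klk1 (1.92) rose as well. So did the sodium pump subunit Atp1b1 (1.43), a call lost without control library 2, at 1.35. Meaned over the 4 libraries without TMM scaling, Atp1b1 stood at 77.9 CPM in cytotoxic-type and 22.2 CPM in helper-type T cells. Muc2 stood at 94.2 and 99.8 CPM in the same order. Whether the Atp1b1 transcripts came from epithelial cells was not tested. Of 11 tested epithelial genes outside the rule, 2 rose and 0 fell, with a median of 1.04, beside 10 higher and 10 lower of all 7668 genes outside the rule. The 6 epithelial genes of the rule summed to 829 and 833 CPM with CCl4 and 348 and 351 CPM in control. Fibroblast-type cells, with at least 5 counts of Col1a1, Col3a1, Dcn and Pdgfra and none of CD3, carried these transcripts too: without TMM scaling, Sycn stood at 163 and 178 CPM with CCl4 and 51.1 and 41.9 CPM in control, and Klk1 at 151 and 179 CPM with CCl4 and 43.2 and 31.0 CPM in control. Among 1000 counts, a Muc2 count stood in 11.5% and 11.05% of cytotoxic-type T cells with CCl4 and 4.01% and 3.57% in control, and in 12.2% and 10.8% of fibroblast-type cells with CCl4 and 3.89% and 3.67% in control. The part of transcripts from other cells in these calls was not tested.

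Immunoglobulin transcripts were lower with CCl4. Igha, the heavy chain of IgA, fell to 379 and 240.3 CPM in CCl4 libraries 1 and 2, against 744 and 1109 CPM in control libraries 1 and 2 (log2 ratio -1.57, SE 0.225, edgeR adjusted p = 0.0314). Jchain (-1.27, adjusted p = 0.0445), Igkc (-1.16, adjusted p = 0.0445) and Iglc3 (-3.00, adjusted p = 0.0494) fell too, and these 3 calls were lost without control library 2, at -1.04, -0.83 and -2.93. Of 6 tested immunoglobulin transcripts 0 rose and 4 fell, with a median of -1.22, beside 10 higher and 10 lower of all 7668 genes outside the rule, and Ighm, the most abundant of the others, had a ratio of 0.52. Among 1000 counts, an Igha count stood in 23.96% and 25% of cytotoxic-type T cells with CCl4 and 44.15% and 55.2% in control, and in 22.2% and 20.1% of fibroblast-type cells with CCl4 and 46.1% and 48.8% in control. The part of transcripts from plasma cells in the immunoglobulin calls was not tested. The list of 5 plasma cell markers summed to 680 and 572 CPM in the T cells with CCl4 and to 1285 and 1897 CPM in control, with none at 0. Fibroblast transcripts were not called in edgeR or DESeq2 (0 of 8, median -0.64). At an unadjusted p under 0.05, 2 of the 8 were lower, beside 274 of all 7668 genes outside the rule. In the same fibroblast-type cells Gzma stood at 0.498 to 1.15 CPM and Ifng at 2.21 to 7.60 CPM.

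Most of the 30 gene lists held no call. In 26 of them edgeR called 0 of 370 tested entries, 52 of which had an unadjusted p under 0.05, and DESeq2 called 1. Over all 7668 genes outside the rule, 302 were higher and 274 lower at an unadjusted p under 0.05, and DESeq2 called 24. Heat shock proteins were abundant: the 18 summed to 39310 and 39730 CPM with CCl4 and 42390 and 42190 CPM in control, without TMM scaling, with 1 higher and 2 lower at an unadjusted p under 0.05. Hsp90ab1 had 9039 and 8189 CPM with CCl4 and 9420 and 8818 CPM in control (log2 ratio -0.08), and the median of 18 was -0.03. Among immediate early genes, which dissociation can induce, the median of 29 was 0.03, with Tnfaip3 at -0.03 and Nfkbia at 0.18. MHC class I genes had a median of -0.18 over 19 and the interferon response of -0.16 over 26, with B2m at -0.09, H2-K1 at -0.24 and Irf1 at 0.07. Granule proteins other than the rule genes had a median of -0.18 over 11, with Srgn, the proteoglycan that packs granzymes, at 2589 and 2200 CPM with CCl4 and 2861 and 2553 CPM in control (-0.18). MHC class II and macrophage transcripts were highest in library 2 of each group: the list summed to 212 and 1225 CPM with CCl4 and to 238 and 680 CPM in control.

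**Figure D5:**
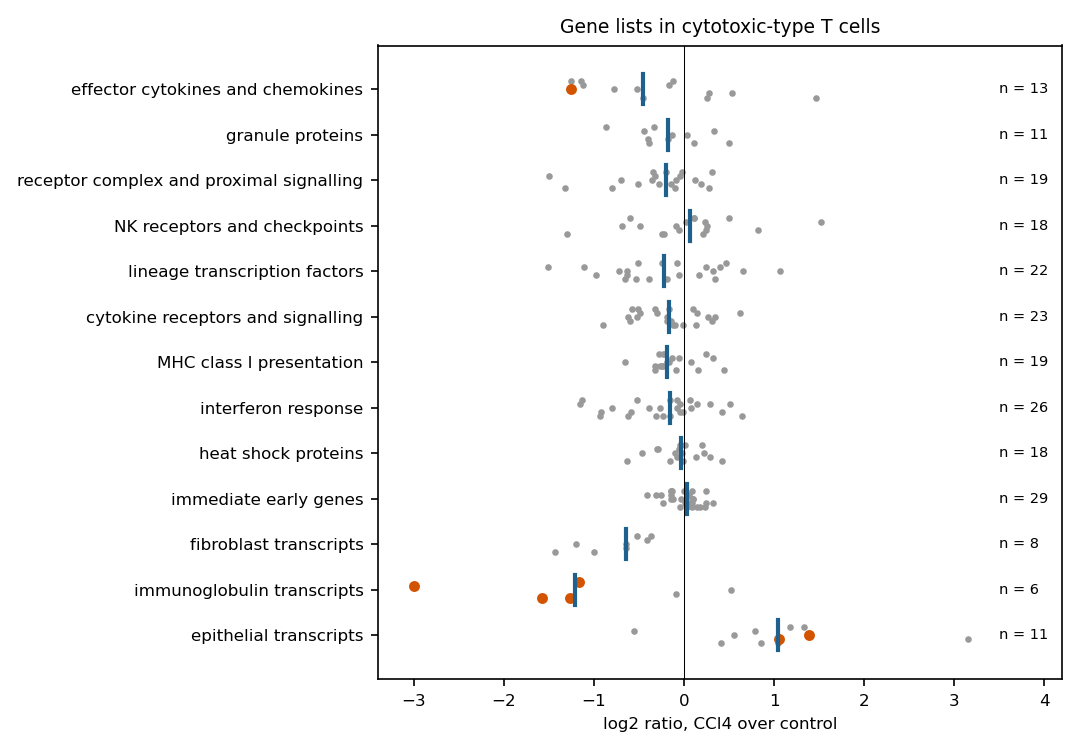
Log2 ratio of CCl4 over control for each tested gene of 13 lists in cytotoxic-type T cells, genes of the rule left out; grey points are not called, orange points have an edgeR adjusted p under 0.05, blue bars are list medians, and n is the number of genes tested. The effector list has its median at -0.46 with Ifng called, the epithelial list at 1.04 and the immunoglobulin list at -1.22.

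Helper-type T cells of the same libraries served to ask whether the changes were shared. A test of the difference between the 2 cell types, edgeR's interaction term with the library as a factor, called 8 of 8119 genes (0.0985%), 1 with a ratio higher in cytotoxic-type T cells (0.0123%) and 7 lower (0.0862%). Of these Ctla4 is a gene of the rule. Hspa1a, a heat shock protein, had 4112 and 3640 CPM with CCl4 and 4815 and 4704 CPM in control in cytotoxic-type T cells, and 6791 and 4660 CPM with CCl4 and 10860 and 9649 CPM in control in helper-type T cells. The log2 ratio in cytotoxic-type minus that in helper-type T cells was 0.56 (SE 0.0986, edgeR adjusted p = 0.0368). Leaving out either control library left edgeR with 0 calls (317 genes at an unadjusted p under 0.05 without library 1, 345 without library 2), and DESeq2 called 0 (99 at an unadjusted p under 0.05).

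Ifng was not called in this test, which does not show that the cell types responded alike. Ifng had a log2 ratio of -1.83 in helper-type T cells (edgeR adjusted p = 0.280), at 68.3 and 507 CPM with CCl4 and 1053 and 984 CPM in control, and the difference from cytotoxic-type T cells was 0.91 (SE 0.568, adjusted p = 0.979). Gzmb is a gene of the rule and is given as values only. In helper-type T cells it stood at 121 and 69.9 CPM with CCl4 and 247 and 164 CPM in control. Slc15a2 had a log2 ratio of -3.79 there (edgeR adjusted p = 0.0763) and Igha of -1.45 (edgeR adjusted p = 0.00684). Igha was 1 of 16 calls among 6883 genes (0.232%), 10 of them higher (0.145%) and 6 lower (0.0872%).

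Gamma-delta-type and alpha-beta-type cells were compared within the libraries, on 3 to 8 gamma-delta-type cells per library. edgeR called 8 of 3276 genes (0.244%), 1 higher (0.0305%) and 7 lower (0.214%), of which Trdc, Trbc2, Trbc1 and Trac defined the split and Gzma is a gene of the rule. Hspa1a was lower in gamma-delta-type cells, at 2177 and 2731 CPM with CCl4 and 227 and 1073 CPM in control, against 4861 and 4232 CPM with CCl4 and 5890 and 5820 CPM in control in alpha-beta-type cells (log2 ratio -1.90, SE 0.269, edgeR adjusted p = 1.88e-09). Hspa1b, nearly identical to it, had a ratio of -1.23 (SE 0.272, adjusted p = 0.0033). Ifng had a ratio of -2.30 (SE 0.519, adjusted p = 0.0043), on 1 and 1 counts in the gamma-delta-type cells with CCl4 and 0 and 19 counts in control. Without CCl4 library 2, 13 genes were called, but DESeq2 called 4, 1 higher and 3 lower. With stricter cells edgeR called 2, 1 higher and 1 lower, so Hspa1a, Hspa1b and Ifng cannot all have been called lower there.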

How the data were processed

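Colon cells of 2 CCl4 and 2 control libraries were read as counts per gene and barcode, as deposited by the authors; the matrices were written with PISA v0.12b, per the file headers, and mapped to GRCm38, per the submitters' processing notes. The aligner, the annotation, the strand of counting and whether counts are of molecular identifiers are not given in the sources used here. Every deposited barcode has over 1000 counts. Kept barcodes had 200 or more genes and no more than 25% mitochondrial counts. T cell classes follow the rule of 28 genes given above, and counts were summed per library over the cells of a class, since cells are not replicates. The members, the gene lists and the tests were chosen with earlier results of these data known.

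Sums were tested with edgeR 4.0.16 (TMM, filterByExpr, quasi-likelihood test, Benjamini-Hochberg adjustment over all genes tested, threshold 0.05) in R 4.3.3, and shares with an exact permutation test over the 4 libraries. DESeq2 1.42.0 was an alternative. The scripts were tested on simulated data. Thinning drew 1000 counts from each barcode. Doublet scores came from scrublet in scanpy 1.11.5, and no cell was removed for them except in an alternative. Member sums of 632637 to 1169788 counts per library limit genes of few CPM. Text genes are the 10 largest calls in each direction with at least 50 CPM in either group, leaving out mitochondrial, ribosomal, variable-segment and predicted genes, the 4 most abundant genes of each list, called list genes, the genes of the rule as values, the 5 interaction calls of smallest p, and, where said, genes chosen after their values were seen. Gm26917, Gm42418 and Hspa1b fall outside these rules or were added for comparison. Library numbers 1 and 2 pair nothing in the labels; deviations of same-numbered libraries correlated at 0.06 over 7690 genes. 1 called gene and 1 marker gene are not reported here.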

Additional observations from a re-analysis of the deposited data

Results flagged for a closer look

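The test of the difference between cytotoxic-type and helper-type T cells in their CCl4 ratios drew out 5 genes, given as the log2 ratio in cytotoxic-type minus that in helper-type T cells, with edgeR's quasi-likelihood test. All 5 had an adjusted p of 0.0368, which did not pass 0.05 without control library 1, without control library 2 or with DESeq2. Hspa1a, an inducible heat shock protein with the near-identical copy Hspa1b, differed by 0.56: its ratio was -0.28 in cytotoxic-type and -0.83 in helper-type T cells (edgeR adjusted p = 0.0202 for helper-type). Hba-a2, a haemoglobin chain with the near-identical copy Hba-a1, differed by -7.06, and stood at 1794 CPM in helper-type T cells of CCl4 library 2 and at 3.10 to 37.4 CPM in the other 7 sums. Without CCl4 library 2 the Hba-a2 difference was -2.26 and was not called. H2-Aa, an MHC class II chain, differed by -3.22, with 72.6 and 337 CPM with CCl4 and 17.1 and 12.4 CPM in control in helper-type T cells, and 15.2 and 148 CPM with CCl4 and 20.7 and 79.8 CPM in control in cytotoxic-type T cells. Ly6c1, a surface protein of effector and memory T cells and of endothelium, differed by -3.04, with 26.6 and 13.05 CPM with CCl4 and 45.3 and 59.4 CPM in control in cytotoxic-type T cells, and 198 and 152 CPM with CCl4 and 21.7 and 103 CPM in control in helper-type T cells. Igfbp3, a secreted binder of insulin-like growth factors, differed by -4.71, with 1.27 and 13.05 CPM with CCl4 and 40.4 and 25.7 CPM in control in cytotoxic-type T cells, and 48.4 and 59.1 CPM with CCl4 and 20.2 and 3.71 CPM in control in helper-type T cells. The part of transcripts from other cells in these differences was not tested.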

How the results depend on the processing

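The shares of kept cells and of T cells, the share of granzyme-positive cells, and the 20 calls outside the rule genes kept their direction under every alternative in which they were computed, several of them chosen after seeing the data. The gamma-delta share reversed its log2 ratio with cells thinned to 1000 counts (-0.0306) and as the share of cells with Trdc (-0.00277). Of genes changed in cytotoxic-type T cells, 26 were called, and 42 to 120 were called when 1 library was left out, 67 without a low-count filter, 13 with stricter cells, 17 without the highest doublet scores, 1 with thinned cells (1927 genes tested), 3 under 0.05% epithelial counts and 7 without granzyme-positive cells. With the library number as a replicate block 40 genes were called, and 2 of the 7 genes of the K sum; since only the number is shared, this gives no pairing. Of the K sum, 1 to 2 genes were called when 1 library was left out (1 without control library 1), 0 with stricter cells (4 at an unadjusted p under 0.05) and 1 with both granzymes out of the sum. The interaction had 8 calls in edgeR, 0 to 52 when 1 library was left out (52 without CCl4 library 1 and 39 without CCl4 library 2), 5 with RLE size factors, 40 without a low-count filter, 0 in DESeq2 and 16 with stricter cells. Gamma-delta-type against alpha-beta-type cells had 8 calls, 7 to 13 when 1 library was left out, 98 without a low-count filter, 4 in DESeq2 and 2 with stricter cells. The cause of these changes was not tested. With 3 to 8 gamma-delta-type cells and 2 libraries per group, small differences are not detectable at this depth.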
